A study of Mus musculus with 11 samples.

Results

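The transcripts of 9 genes of proximal T cell receptor (TCR) signaling were followed in regulatory T (Treg) cells from donor mice transgenic for 1 TCR. The genes were Cd3d, Cd3e, Cd3g, Cd247, Lck, Zap70, Lat, Lcp2 and Plcg1. These genes were chosen by name as the CD3 chains and the first kinases, adaptors and phospholipase of the cascade. The choice was made with earlier results of these data known, so the shares of these genes called below are descriptions. All 9 were among the 52997 genes of the count table, and all 9 passed the filter on low counts, which left 12932 genes for testing. The cells were vTreg53 Tg+ Treg cells of C57BL/6 background, labelled as male and 15 weeks old, in which transgenes encode the TCR of a single expanded clone of visceral adipose tissue (VAT) Treg cells. Donor cells, taken from pooled spleen and lymph nodes (Spl/LN), were placed in CD45.1 recipient mice, which were primed 6 weeks later with Fat1562, a peptide seen by this TCR, in complete Freund's adjuvant, and boosted after 1 more week in incomplete adjuvant. From Spl/LN there were 3 libraries with adjuvant alone and 3 with adjuvant/Fat1562, and from VAT 2 and 3 libraries, respectively. Control mice received adjuvant alone by the study's text, but their labels read unimmunized and PBS. Every library came from 1000 double-sorted donor cells that stained for the V segments of the transgenic receptor. Surface TCR was thus itself a condition of the sort. Whether these cells also carried other TCR chains was not tested. A single transgenic receptor in a transferred population limits these cells as a model of the mixed VAT-Treg pool.

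The TCR itself has no enzymatic activity. Its chains reach the surface with the CD3 delta, epsilon and gamma chains and a pair of zeta chains, whose cytoplasmic tyrosine motifs are phosphorylated by Lck after ligand binding. Zap70 docks on these motifs and phosphorylates the adaptors LAT and SLP-76, encoded by Lat and Lcp2, which together recruit phospholipase C gamma 1, encoded by Plcg1, to generate calcium and diacylglycerol signals. In Treg cells the same cascade reads self-antigen and is needed to keep the cells functional.

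Cd3g, Cd3d and Cd3e lie side by side on chromosome 9 of GRCm38, in the order chr9:44969572-44980431 (minus strand), chr9:44981786-44987339 (plus strand) and chr9:44998740-45009627 (minus strand), within 40056 bases. The starts of Cd3g and Cd3d are 1355 bases apart and point away from each other. Cd247 lies elsewhere, at chr1:165788681-165877277 (plus strand). Because the chromosome 9 genes and Cd247 had different values across the groups below, their promoters are printed from RefSeq (GRCm38.p6), 250 bases before to 50 bases after the start, 5′ to 3′ on the gene's strand. Capitals mark AGGAAGT or its reverse complement ACTTCCT, letters found in sites of ETS-family factors.
Cd3d, chr9:44981536-44981835, plus strand: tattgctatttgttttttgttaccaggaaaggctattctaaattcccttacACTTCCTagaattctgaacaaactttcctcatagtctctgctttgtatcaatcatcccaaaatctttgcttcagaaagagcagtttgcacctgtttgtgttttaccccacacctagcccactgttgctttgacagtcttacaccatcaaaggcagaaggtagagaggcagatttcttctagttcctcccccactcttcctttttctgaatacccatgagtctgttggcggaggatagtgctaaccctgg
Cd3g, chr9:44980382-44980681, minus strand: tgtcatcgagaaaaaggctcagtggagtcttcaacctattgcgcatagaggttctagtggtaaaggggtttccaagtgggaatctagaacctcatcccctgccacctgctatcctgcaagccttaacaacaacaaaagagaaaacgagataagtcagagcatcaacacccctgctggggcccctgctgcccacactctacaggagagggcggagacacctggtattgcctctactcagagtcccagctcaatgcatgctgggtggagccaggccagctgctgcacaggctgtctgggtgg
Cd3e, chr9:45009562-45009861, minus strand: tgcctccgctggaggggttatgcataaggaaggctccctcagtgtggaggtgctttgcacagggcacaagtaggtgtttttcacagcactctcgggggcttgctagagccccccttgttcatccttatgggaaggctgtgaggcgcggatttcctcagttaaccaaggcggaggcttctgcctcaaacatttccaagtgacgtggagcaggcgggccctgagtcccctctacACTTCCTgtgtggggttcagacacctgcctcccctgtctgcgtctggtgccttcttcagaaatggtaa
Cd247, chr1:165788431-165788730, plus strand: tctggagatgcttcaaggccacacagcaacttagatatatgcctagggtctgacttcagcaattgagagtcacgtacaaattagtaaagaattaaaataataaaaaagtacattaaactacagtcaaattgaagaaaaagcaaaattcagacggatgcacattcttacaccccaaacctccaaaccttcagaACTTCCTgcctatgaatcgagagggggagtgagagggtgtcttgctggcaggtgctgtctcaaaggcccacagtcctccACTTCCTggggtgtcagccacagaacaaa
The motif occurred once in the Cd3d window, once in the Cd3e window, at 2 places in the Cd247 window and not in the Cd3g window. All 9 genes were matched to RefSeq, with 12 windows among them, of which 5 windows of 4 genes (Cd3d, Cd3e, Cd247 and Lck) held the letters on either strand, against 9.35% of all 32851 promoter windows of the same length. The motif was chosen after the sequences had been seen. A second set of letters, TGTGGT on either strand, found in sites of RUNX-family factors, was in 1 window each of Zap70, Lck and Lat, against 16.8% of all windows. A match describes letters and shows no binding, and no binding was measured here.

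Total counts ran from 4490242 to 6570057 per library, and the counts of single members from 877 to 11454 per library, so that the spread between libraries rather than counting error set the precision. The 9 genes together took between 0.473% and 0.748% of a library's counts. The marker genes of Treg cells were high in every library, Foxp3, the defining transcription factor, at 7448 ± 193 normalized counts (SD) in Spl/LN adjuvant alone and 9851 ± 596 in VAT adjuvant alone. Of the CD8 T cell markers, Cd8a was at or near 0 in every group and Cd8b1 had group means of 90.2 to 183 normalized counts. The summed NK cell markers stayed at or below 32.1 normalized counts and the summed B cell markers at or below 226. The gamma delta T cell list, made up mostly of Trdc, summed to 420 to 1109. As these are bulk libraries, fewer cells of a type and less RNA per cell cannot be told apart. The study's methods call the replicates biological, but neither they nor the labels say that libraries came from separate mice. The p-values therefore measure the spread between these libraries.

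The levels of the 9 genes differed widely. Compared per kilobase of merged exons (GENCODE vM21), Lck was highest in every group by the group mean, at 2585 ± 57.6 (SD, n = 3) normalized counts per kb in Spl/LN adjuvant alone, followed by Cd3d at 1949 ± 84.4. Cd3e and Cd3g came next at 1158 and 1116 per kb and their ranges over libraries overlapped, as did those of Cd3g and Lat, the latter at 993 per kb. Zap70, Cd247 and Lcp2 lay together at 641, 634 and 599 per kb in Spl/LN adjuvant alone, with overlapping neighbours. Plcg1 was lowest in every group, between 135 per kb in VAT adjuvant alone and 176 per kb in Spl/LN adjuvant alone. The order was not the same in each group. In VAT adjuvant alone the ranges of Lck (mean 1917 per kb) and Cd3d (1732 per kb) overlapped. Zap70 stood at 481 per kb there, below Lat, Cd247 and Lcp2, and at 852 per kb in VAT adjuvant/Fat1562, above all of these, in each case without overlap with its neighbours. The place of Cd247 in this order is uncertain: 3213 of its 5329 merged exon bases overlap Pou2f1, on the opposite strand, or the unnamed transcript Gm16565, and 57.0% of its 38-base stretches occur in them. Whether counting used strand is not given in the sources used here. Over its 2116 other exon bases the same counts would give Cd247 1596 per kb in Spl/LN adjuvant alone, above Cd3e. In VAT adjuvant/Fat1562 they would give it 1590 per kb, above Zap70 at 852 per kb.

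**Figure D1:**
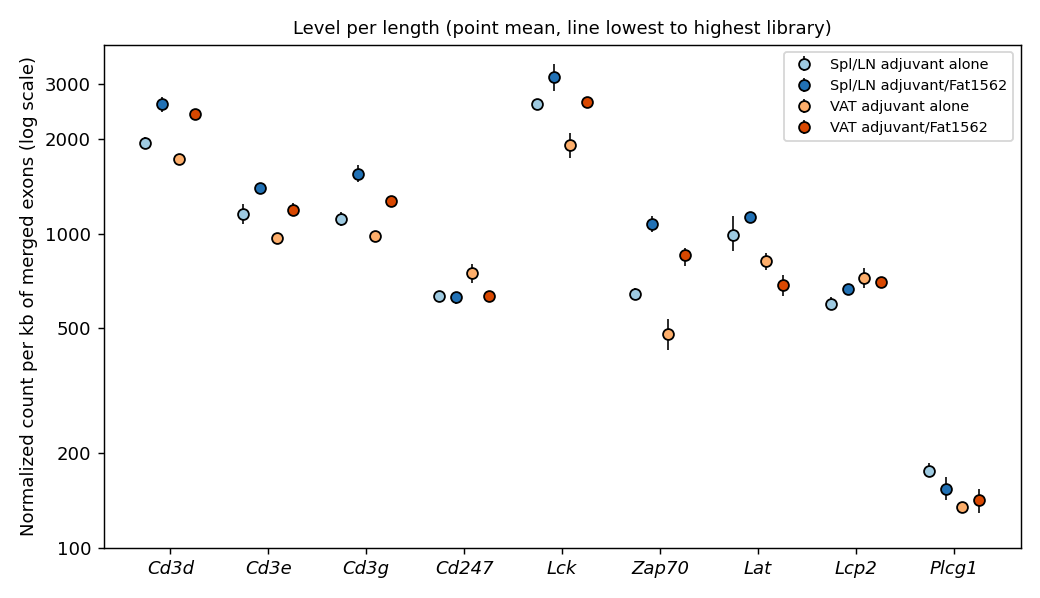
Normalized count per kb of merged exons (y axis, log scale) of the 9 genes (x axis) in the 4 groups, with points at group means (n = 3, 3, 2 and 3 libraries) and lines from the lowest to the highest library. Lck and Cd3d are highest and Plcg1 lowest in each group, and Zap70 moves past its neighbours between groups.

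The first question was what immunization with Fat1562 did to these transcripts in the tissue from which the clone came. In VAT, Cd3d, Cd3e, Cd3g, Lck and Zap70 rose with adjuvant/Fat1562 over adjuvant alone, 5 of the 9 genes, and none fell. The changes were modest, from 1.23-fold for Cd3e to 1.77-fold for Zap70. Among all tested genes 8.30% passed the same test, 4.32% higher and 3.97% lower. The median log2 fold change of the 9 genes was 0.30, that of all tested genes 0.01.

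Zap70, the kinase that docks on phosphorylated CD3 and zeta chains, had 1604 and 1273 normalized counts in the VAT adjuvant alone libraries and 2362, 2689 and 2597 in the VAT adjuvant/Fat1562 libraries. The groups did not overlap, and every immunized library was above both controls. The log2 fold change was 0.82 (SE 0.11, edgeR adjusted p = 9.24e-05). It was called higher in this comparison under each of 21 alternative settings, at log2 fold changes of 0.67 to 1.00. Cd3d, the delta chain, had 3174 and 3114 normalized counts with adjuvant alone and 4509, 4381 and 4179 with adjuvant/Fat1562. The 2 control libraries lay close together, well under the lowest immunized library. The change was 0.47 (SE 0.08, edgeR adjusted p = 0.00156), also called in all 21 alternatives. Lck, which phosphorylates the receptor's motifs, had 6125 and 5102 normalized counts with adjuvant alone and 7487, 7710 and 7926 with adjuvant/Fat1562, again without overlap. Its change was 0.46 (SE 0.09, edgeR adjusted p = 0.00440).

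Cd3g, the gamma chain, went from 3325 and 3087 normalized counts to 4002, 4132 and 4299 (log2 fold change 0.37, SE 0.09, edgeR adjusted p = 0.0117). Cd3e, the epsilon chain that pairs with both delta and gamma, went from 3853 and 4048 to 4690, 4762 and 5108, a smaller change of 0.30 (SE 0.08, edgeR adjusted p = 0.0369) that passed in 12 of the 21 alternatives. The control group had only 2 libraries. Without VAT adjuvant alone replicate 2, 2 of the 9 genes, Cd3d and Zap70, still passed, and the number of all genes called fell from 1073 to 508. It fell to 545 without VAT adjuvant alone replicate 1 and to 623 without VAT adjuvant/Fat1562 replicate 2. In both leave-outs of a VAT control library the lone library left was assumed to vary like the other groups. The summed markers of gamma delta T cells, which also carry CD3, were at 420 to 603 normalized counts in VAT adjuvant alone and 715 to 1024 in VAT adjuvant/Fat1562. Of this list only Trdc had a higher mean after Fat1562, at 496 and then 879. The means of Tcrg-C1 (4.35 and 0.751), Tcrg-C2 (3.34 and 0), Tcrg-C4 (6.25 and 1.70) and Sox13 (1.09 and 0.715) were lower, all near the floor. The adipocyte and stroma list, mostly the endothelial and leukocyte gene Pecam1, was at 264 to 309 and at 451 to 616, with Adipoq at 0 in VAT adjuvant alone. The CD8 T cell list was lower after Fat1562, at 172 to 194 and then at 91.7 to 137, with Cd8a at 0 in both VAT groups. The part of these lists in the CD3, Lck and Zap70 results was not tested.

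The other 4 genes did not pass the test in VAT. Groups of 3 and 2 libraries often separate, and among all tested genes 21.1% lay wholly higher and 20.0% wholly lower after Fat1562. Cd247, which encodes the zeta chain, had 4267 and 3716 normalized counts with adjuvant alone and 3507, 3254 and 3335 with adjuvant/Fat1562. All 3 immunized libraries were below both controls, opposite in direction to the other chains, with a log2 fold change of -0.25 (SE 0.09, 95% interval -0.43 to -0.06, edgeR adjusted p = 0.0950). Pou2f1, whose exons overlap it, was at 184 ± 0.742 (SD, n = 2) and 165 ± 8.95 normalized counts (n = 3), far under Cd247. Lat, the membrane adaptor, had 2404 and 2127 normalized counts with adjuvant alone and 1747, 1903 and 2046 with adjuvant/Fat1562, also without overlap, at -0.25 (SE 0.11, interval -0.49 to -0.02, edgeR adjusted p = 0.182). Lcp2, the adaptor SLP-76, gave -0.05 (interval -0.23 to 0.14) and Plcg1 0.07 (interval -0.16 to 0.31). The interval of Plcg1 includes a rise of the size seen in Cd3e, whereas that of Lcp2 ends below it.

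**Figure D2:**
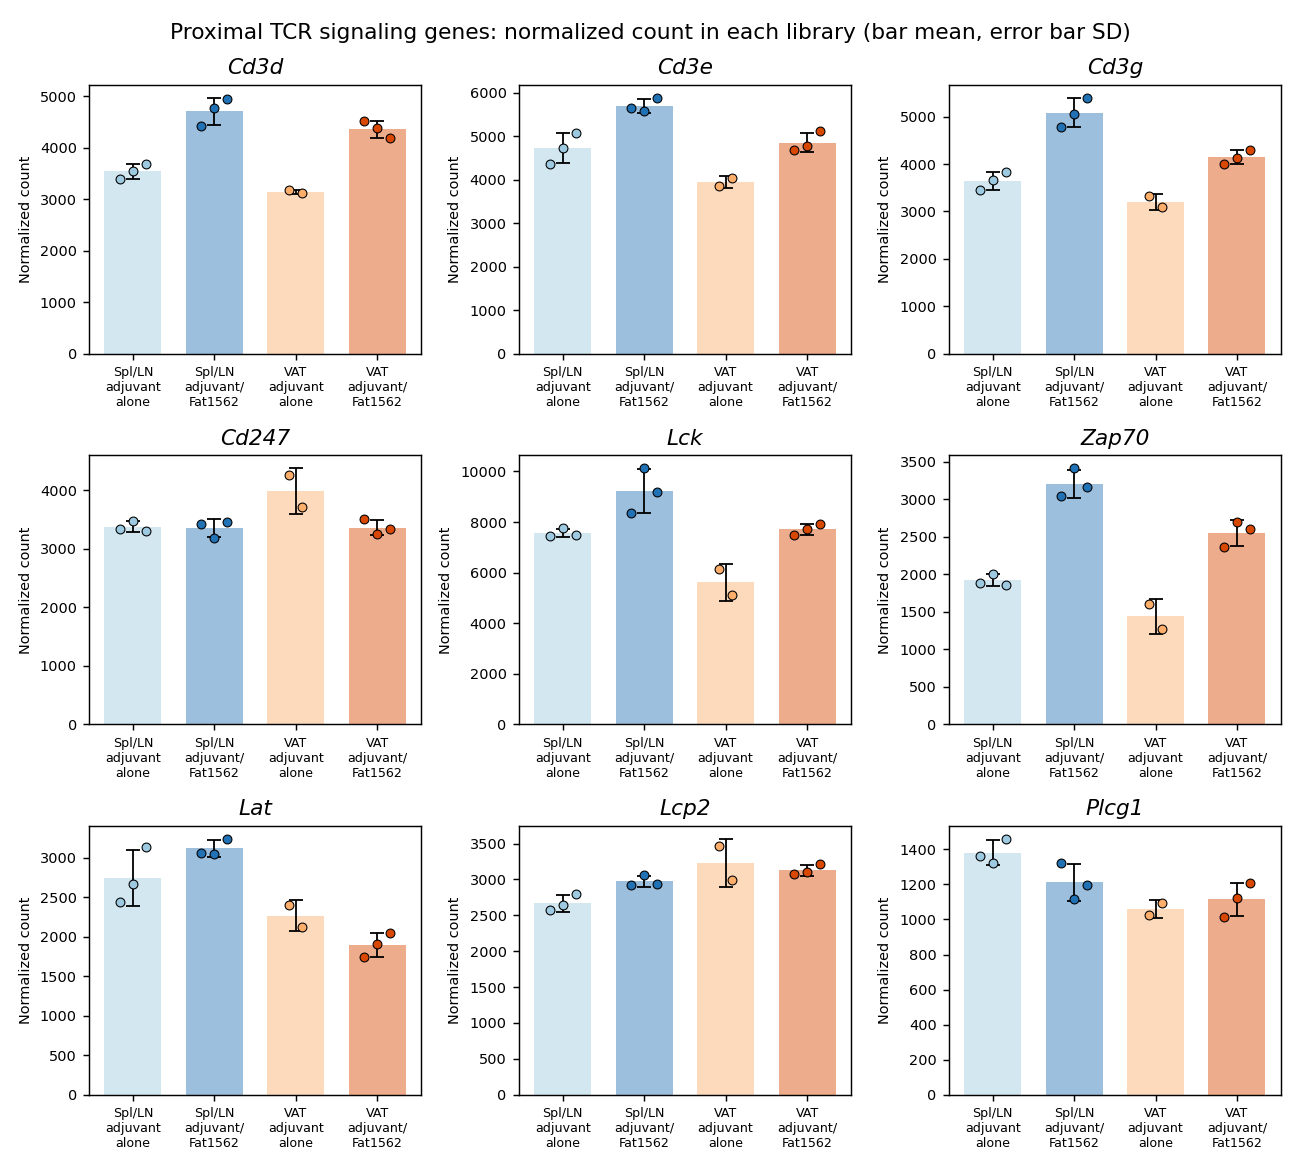
Normalized count (y axis, from 0) of each of the 9 genes in the 4 groups (x axis), with points for single libraries, bars for means and error bars for the SD (n = 3, 3, 2 and 3). Zap70 is at 1273 to 2006 in the adjuvant alone libraries and at 2362 to 3412 in the adjuvant/Fat1562 libraries, whereas Cd247 stays between 3188 and 4267.

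In Spl/LN, the same immunization raised Cd3d, Cd3g and Zap70, 3 of the 9 genes, and no member fell. Among all tested genes 3.98% passed, 2.58% higher and 1.40% lower. The median of the 9 genes was 0.27, that of all tested genes -6.95e-06. With quantile normalization the share of higher genes among those called was 54.8%, and with library totals alone 53.2%, against 64.9% here. The changes of Cd3d, Cd3g and Zap70 kept their direction and their call under each scaling.

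Zap70 had 1888, 2006 and 1858 normalized counts in Spl/LN adjuvant alone and 3036, 3412 and 3162 in Spl/LN adjuvant/Fat1562. Every immunized library exceeded every control by over 1000 normalized counts. The rise was 1.67-fold (log2 fold change 0.74, SE 0.09, edgeR adjusted p = 0.000167) and was called in all 21 alternatives. Cd3g had 3447, 3665 and 3833 normalized counts with adjuvant alone and 4788, 5057 and 5399 with adjuvant/Fat1562, a change of 0.48 (SE 0.08, edgeR adjusted p = 0.00130). For Cd3d the libraries were at 3382, 3540 and 3688 and at 4422, 4761 and 4937, a change of 0.41 (SE 0.07, edgeR adjusted p = 0.00340). Both chains were without overlap and were called in all 21 alternatives.

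Cd3e and Lck just missed the threshold in Spl/LN. Cd3e went from 4370, 4730 and 5071 to 5645, 5568 and 5882 normalized counts, without overlap (log2 fold change 0.27, SE 0.07, edgeR adjusted p = 0.0524). Lck went from 7466, 7766 and 7481 to 8363, 10129 and 9188, also without overlap (0.28, SE 0.08, edgeR adjusted p = 0.0616). Among all tested genes 11.5% lay wholly higher after Fat1562 in Spl/LN. With DESeq2 both passed, giving 5 of 9 members. Cd247 was level in its values, at 3348, 3484 and 3301 with adjuvant alone and 3422, 3188 and 3464 with adjuvant/Fat1562, the groups overlapping (-0.01, SE 0.08, interval -0.17 to 0.15), while Pou2f1 was at 209 ± 43.2 and 154 ± 22.1 (SD, n = 3 each). Lat gave 0.18 (edgeR adjusted p = 0.349), Lcp2 0.15 (0.314) and Plcg1 -0.19 (0.313). The 2 comparisons of immunization use separate libraries in the 2 tissues, with 1 estimate of spread over all groups. The NK cell list, at 0.966 to 9.14 summed normalized counts in Spl/LN adjuvant alone, was at 17.2 to 32.1 in Spl/LN adjuvant/Fat1562. This difference lay in Klrb1c, with means of 2.24 and 25.6. Ncr1 had means of 0.914 and 0, Klra8 of 0.914 and 0.943, Klra4 of 0 and 0.267, and Eomes was at 0 in both. The part of this list in these changes was not tested.

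**Figure D3:**
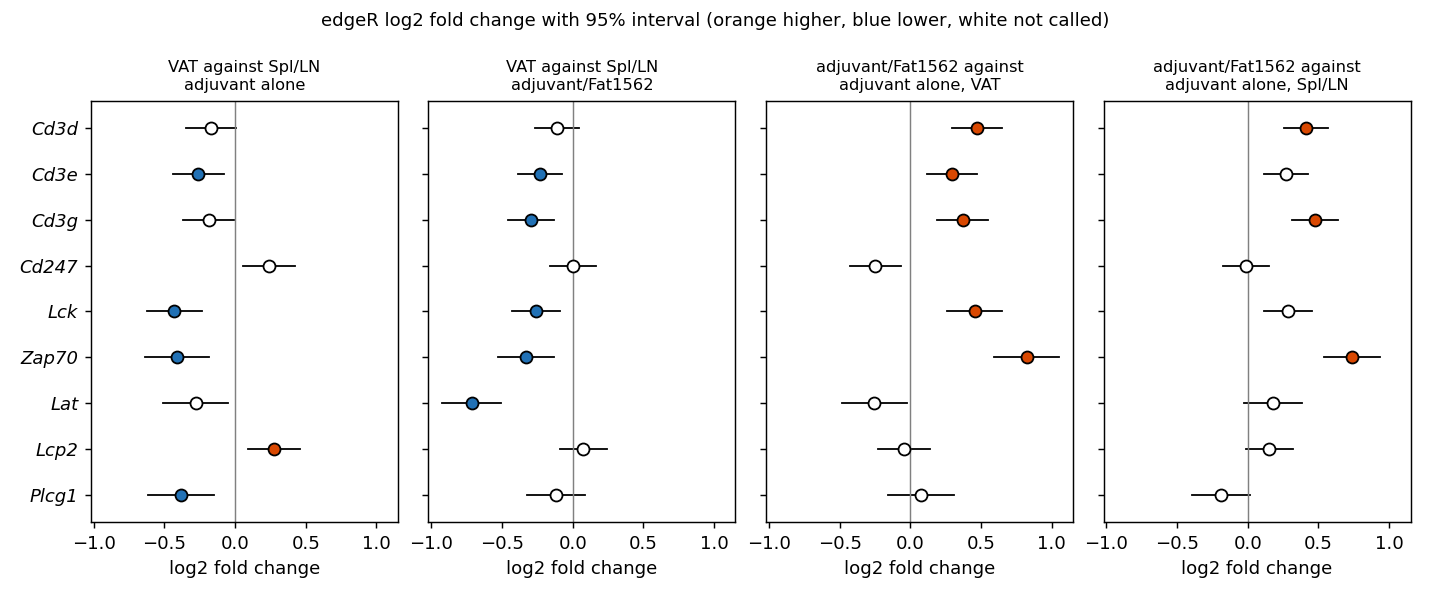
Log2 fold change by edgeR (x axis) of the 9 genes (y axis) in the 4 comparisons, with 95% intervals as lines. Orange points passed as higher, blue as lower and white did not pass. Zap70 has the largest change in both immunization comparisons, at 0.82 in VAT and 0.74 in Spl/LN.

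Whether the effect of immunization differed between VAT and Spl/LN was tested as an interaction term. It was called for 0 of the 9 genes by edgeR and 0 by DESeq2, against 3.72% of all tested genes, 1.70% with a more positive effect in VAT and 2.02% with a more negative one. With library totals alone as the scaling, 60.9% of the genes called were more positive in VAT, against 45.7% here. At an unadjusted p under 0.05, 1 member of 9 passed, against 16.9% of all tested genes, so the share was not above the background. The member was Lat, whose difference of effects was -0.43 (SE 0.15, interval -0.74 to -0.13, edgeR adjusted p = 0.122). Its values were lower with Fat1562 in VAT and higher with Fat1562 in Spl/LN. Without Spl/LN adjuvant alone replicate 3, the library with the highest Lat of its group, the interaction was -0.54 with an edgeR adjusted p of 0.0283. For Zap70 the interaction was 0.09 (interval -0.21 to 0.38) and for Cd3d 0.06 (interval -0.17 to 0.29). For Cd247 it was -0.24 (interval -0.48 to 0.01).

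The second question was how the cells of VAT differed from those of Spl/LN. The study's methods describe a collagenase digestion for VAT and name none for Spl/LN. Tissue and isolation cannot be told apart here. With adjuvant alone, Lck, Zap70, Plcg1 and Cd3e were lower in VAT and Lcp2 was higher, 5 of the 9 genes. Among all tested genes 16.3% passed, 9.09% higher in VAT and 7.17% lower. The median of the 9 genes was -0.26, that of all tested genes -0.03. Lck had 7466, 7766 and 7481 normalized counts in Spl/LN and 6125 and 5102 in VAT, without overlap (-0.43, SE 0.09, edgeR adjusted p = 0.00315). Zap70 had 1888, 2006 and 1858 in Spl/LN and 1604 and 1273 in VAT, both VAT libraries being lower (-0.41, SE 0.11, edgeR adjusted p = 0.0124). Plcg1 had 1364, 1322 and 1461 in Spl/LN and 1024 and 1096 in VAT, without overlap (-0.38, SE 0.11, edgeR adjusted p = 0.0237). The lower Cd3e (-0.26, edgeR adjusted p = 0.0437) and the higher Lcp2 (0.27, edgeR adjusted p = 0.0415) lay close to the threshold and passed in 9 and 8 of the 21 alternatives. Lcp2 had 2572, 2641 and 2801 normalized counts in Spl/LN and 3469 and 2990 in VAT. Cd3d (-0.17), Cd3g (-0.19), Lat (-0.28) and Cd247 (0.24) did not pass. The groups did not overlap for these 4 genes either, but in this comparison of 3 with 2 libraries 21.0% of all tested genes lay wholly higher in VAT and 20.4% wholly lower. Cd247 lay higher in VAT except with quantile normalization (-0.11).

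These calls rested on few libraries. Without VAT adjuvant alone replicate 2, 1 of the 9 genes passed, Lcp2, and 1367 genes passed in all in place of 2102. Without VAT adjuvant alone replicate 1, 2 of the 9 passed, Lck and Zap70, and 1259 genes in all. The count was 3 without Spl/LN adjuvant alone replicate 2 or 3, without any 1 of the Spl/LN adjuvant/Fat1562 replicates, or without VAT adjuvant/Fat1562 replicate 2. It was 1, Lck, when only the compared groups were fitted. Scaling also counted here. With library totals alone the median of all tested genes moved to -0.18, 35.5% of the called genes were higher in VAT in place of 55.9%, and Cd3d, Cd3g and Lat passed as lower while Lcp2 (0.12) did not pass. Relative to that median, Lck was at -0.41 and Lcp2 at 0.30, against -0.40 and 0.30 relative to the median of the scaling used here.

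With adjuvant/Fat1562, Lat, Zap70, Cd3g, Lck and Cd3e were lower in VAT than in Spl/LN, 5 of the 9 genes, and no member was higher. Among all tested genes 15.0% passed, 8.26% higher and 6.73% lower. The median of the 9 genes was -0.23, that of all tested genes -0.01. Lat showed the largest difference between tissues of any member. It had 3058, 3052 and 3240 normalized counts in Spl/LN and 1747, 1903 and 2046 in VAT, so that even the highest VAT library was about 1000 counts short of the lowest Spl/LN library. The difference was 1.64-fold (log2 fold change -0.71, SE 0.10, edgeR adjusted p = 5.82e-05) and was called in all 21 alternatives, at -0.84 to -0.66. Zap70 had 3036, 3412 and 3162 in Spl/LN and 2362, 2689 and 2597 in VAT, without overlap (-0.33, SE 0.09, edgeR adjusted p = 0.0240). Cd3g differed by -0.29 (edgeR adjusted p = 0.0137), Lck by -0.26 (0.0399) and Cd3e by -0.23 (0.0447), each without overlap. Lcp2, which did not pass, lay wholly higher in VAT. Among all tested genes 18.8% lay wholly higher in VAT and 17.4% wholly lower in this comparison.

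Cd3d (-0.11), Plcg1 (-0.12), Lcp2 (0.07) and Cd247 (0.00348) did not pass, and the signs of Lcp2 (-0.04 with quantile normalization) and Cd247 depended on the scaling. Of the 5 calls Lat alone remained without Spl/LN adjuvant/Fat1562 replicate 3 or without VAT adjuvant/Fat1562 replicate 1. It was joined by Cd3g without Spl/LN adjuvant/Fat1562 replicate 2, which had the highest Lck and Zap70 of its group, and 3 members passed without VAT adjuvant/Fat1562 replicate 2, when 1289 genes passed in all in place of 1938. With library totals alone 43.7% of the called genes were higher in VAT, against 55.1% here. The comparisons of tissue and of immunization share libraries, so their values stand side by side and are not independent of each other.

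Ratios within a library do not depend on how libraries are scaled. They are given as a description, with no test. The share of all gene pairs whose groups separate was not computed, so separation of a ratio is no result about its pair. The ratios to Cd247 restate the changes of single genes given above. The ratio of Cd3d to Cd247 counts was 1.05 ± 0.060 (SD, n = 3) in Spl/LN adjuvant alone, 1.40 ± 0.10 in Spl/LN adjuvant/Fat1562 (n = 3), 0.791 ± 0.066 in VAT adjuvant alone (n = 2) and 1.29 ± 0.047 in VAT adjuvant/Fat1562 (n = 3). In single libraries it ran from 0.744 to 1.12 with adjuvant alone and from 1.25 to 1.49 with adjuvant/Fat1562, without overlap. Cd3g to Cd247 went the same way, from 1.08 to 1.51 in Spl/LN and from 0.805 to 1.23 in VAT by group means. Cd3e to Cd247 went from 1.40 to 1.70 and from 0.996 to 1.44. Both were without overlap within each tissue but overlapped over the tissues together. Cd3g to Cd247 reached 1.16 with adjuvant alone and was as low as 1.14 with adjuvant/Fat1562, and Cd3e to Cd247 1.54 and 1.34. The ratio of Cd3g to its neighbour Cd3d stayed between 0.888 and 1.09 in all 11 libraries. In Spl/LN it was 1.02 to 1.04 with adjuvant alone and 1.06 to 1.09 with adjuvant/Fat1562, without overlap. Cd3e to Cd3d ran from 1.04 to 1.37 over all libraries. In Spl/LN it was 1.29 to 1.37 with adjuvant alone and 1.17 to 1.28 with adjuvant/Fat1562, without overlap. In VAT the groups overlapped for both ratios. Zap70 to Lck was 0.253 ± 0.0050 and 0.256 ± 0.0087 in the adjuvant alone groups of Spl/LN and VAT, and 0.348 ± 0.013 and 0.331 ± 0.017 in the adjuvant/Fat1562 groups. The ratio of the adaptors, Lat to Lcp2, separated by tissue instead. It was 1.03 ± 0.086 and 1.05 ± 0.054 in Spl/LN with adjuvant alone and adjuvant/Fat1562, and 0.702 ± 0.013 and 0.606 ± 0.035 in VAT, so that no VAT library exceeded 0.711 and no Spl/LN library was below 0.951.

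**Figure D4:**
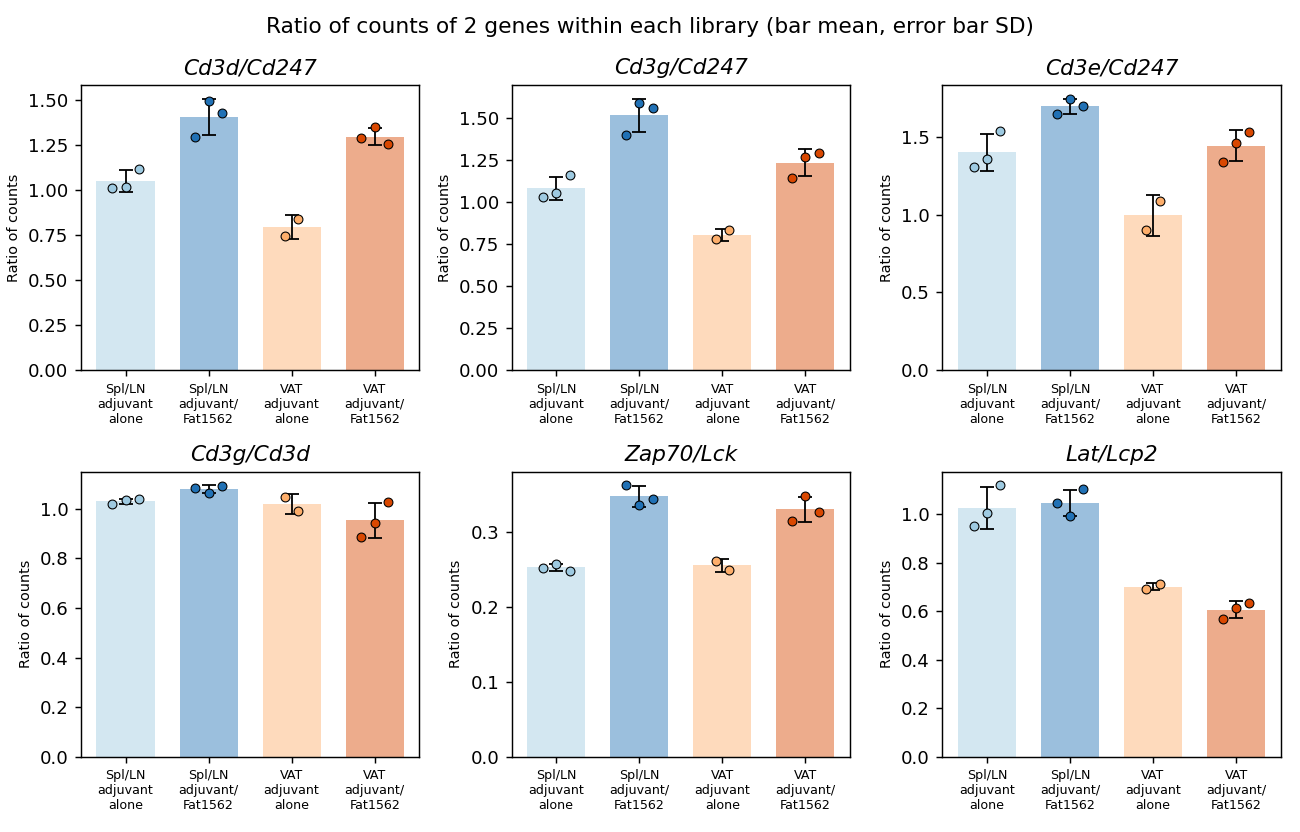
Ratio of the counts of 2 genes within each library (y axis, from 0) in the 4 groups (x axis), with points for libraries, bars for means and error bars for the SD (n = 3, 3, 2 and 3). Cd3d/Cd247 and Zap70/Lck are higher in the adjuvant/Fat1562 libraries of both tissues, and Lat/Lcp2 is lower in the VAT libraries.

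The genes with the most similar pattern over the 11 libraries were found by Pearson's r of log2(normalized count + 1) among all 12932 tested genes. They were Snx5 for Cd3d (r = 0.951), Ptpn1 for Cd3e (0.982), Coro1b for Cd3g (0.965), Trp53i13 for Cd247 (0.951), Gm6637 for both Lck (0.953) and Zap70 (0.972), Chst10 for Lat (0.955), Ripk3 for Lcp2 (0.949) and Mtmr14 for Plcg1 (0.957). Among the members, Zap70 was the second closest gene to Cd3g (0.955) and the third closest to Cd3d (0.945). The points share groups and libraries, and the highest of many values is high by selection, so these are descriptions only.

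Of 65 other genes of the pathway, listed by role, 63 were tested. The lists were drawn up with earlier results of these data known. After Fat1562 in VAT 19 passed, 9 higher and 10 lower, against 8.30% of all tested genes (4.32% higher and 3.97% lower). In Spl/LN 13 passed, 11 higher and 2 lower, against 3.98% (2.58% and 1.40%). The medians were -0.01 and 0.10. Among 6 regulators of Lck, Ptpn6, encoding the phosphatase SHP-1, rose by 0.99 in VAT (SE 0.13, edgeR adjusted p = 9.38e-05) and by 0.98 in Spl/LN (SE 0.11, edgeR adjusted p = 6.15e-05), and Ptpn22, another phosphatase acting on Lck, by 0.64 in VAT (edgeR adjusted p = 0.00192). Txk, a Tec-family kinase, rose by 1.26 in VAT and 0.54 in Spl/LN, the single call among 4 tested kinases of its list in each tissue. Among 10 negative regulators, Sla, an adaptor that promotes loss of TCR complexes from the surface, rose by 0.71 in VAT and 1.01 in Spl/LN. The ubiquitin ligase gene Cblb rose by 0.77 in VAT, and Sla2 (0.72) and Lax1 (0.67) rose in Spl/LN. The 12 tested adaptors that partner LAT and SLP-76 had 1 higher, Sh2d2a (0.31), and 4 lower in VAT. Lower were Tespa1 (-1.56), Sit1 (-1.09), Trat1 (-0.97) and Skap1 (-0.56), all adaptors of the T cell membrane or the LAT complex. In Spl/LN 1 was higher, again Sh2d2a (0.33), and 1, Trat1 (-0.93), lower.

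Downstream of Plcg1, 5 of 19 second messenger genes were lower in VAT after Fat1562 and none was higher, against 3.97% lower and 4.32% higher among all tested genes. Among them were Prkcq, the kinase PKC theta (-0.80), Itpr3, a calcium channel of the endoplasmic reticulum (-0.79), Rasgrp1, a Ras activator that binds diacylglycerol (-0.69), and Dgka, a diacylglycerol kinase (-0.45). In Spl/LN Nfatc1 (0.73) and Itpkb (0.66) were higher and none was lower. Among the 8 co-receptors and co-stimulators, Cd28 (0.81), Slamf6 (0.84) and Icos (0.34) rose and Cd6 (-0.52) fell in VAT, whereas in Spl/LN Cd4 (0.50) and Cd2 (0.30) rose and Slamf6 (-0.60) fell. Of the 3 constant-region TCR chain genes Trac and Trbc1 passed in neither tissue and Trbc2 rose by 0.28 in Spl/LN. Trbc2 did not pass in VAT, and its interaction did not pass either (-0.25, edgeR adjusted p = 0.179). Trbc1 and Trbc2 are near-identical copies whose reads may be divided between them, and the transgenes add to these transcripts.

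Between tissues, 19 of the 63 genes passed with adjuvant alone, 8 higher and 11 lower in VAT, against 16.3% of all tested genes. With adjuvant/Fat1562 24 passed, 6 higher and 18 lower, against 15.0%. Slamf6 (-2.95 and -1.51 with adjuvant alone and adjuvant/Fat1562), Lax1 (-2.06 and -2.20), Trat1 (-2.01 and -2.04), Sh2b3 (-1.92 and -1.51) and Prkcq (-1.06 and -1.67) were lower in VAT under both conditions. So were the inhibitors of Lck Csk (-0.50 and -0.47) and Ptpn6 (-0.88 and -0.87). Ctla4, the inhibitory receptor of Treg cells, was higher in VAT (1.20 and 0.87), as were Sh2d2a, an adaptor that binds Lck (0.59 and 0.57), and Malt1 (0.74 and 0.72). The differences of the 9 proximal genes, none above 0.71 in size, were smaller than those of the first 5 of these genes, which were named for their large changes. The median log2 fold changes of the 63 genes were 0.04 with adjuvant alone and -0.14 with adjuvant/Fat1562. Those of the 9 genes were -0.26 and -0.23.

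**Figure D5:**
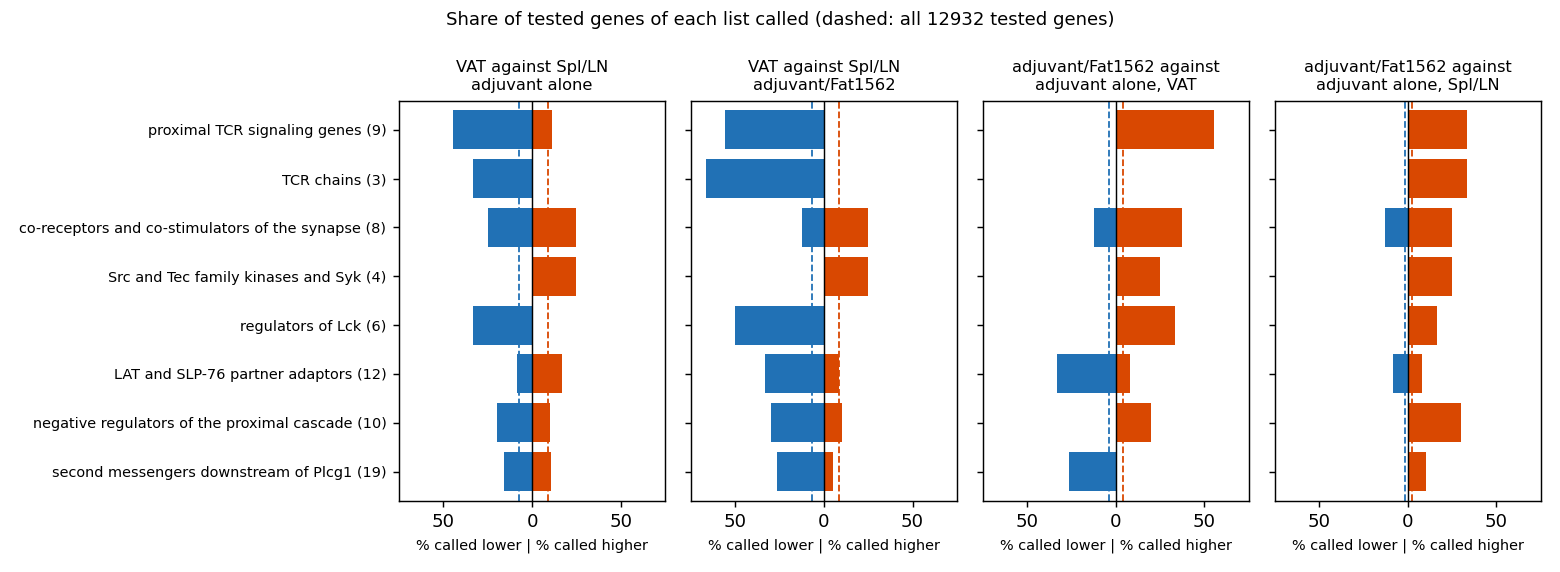
Percentage of the tested genes of each list (y axis, number tested in parentheses) called lower (blue, to the left) or higher (orange, to the right) by edgeR in the 4 comparisons, with dashed lines for all 12932 tested genes. After Fat1562 in VAT the proximal genes have calls on the higher side, whereas the second messenger list has calls on the lower side.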

How the data were processed

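The authors deposited 1 table of counts, whole numbers per gene for 52997 genes, from 11 Smart-seq2 libraries of 1000 Treg cells each and paired reads of 38 bases. The submitters' processing notes list STAR 2.5.4, featureCounts and mm10, with no roles. The study's methods name Cuffquant. The annotation and the use of strand are not given in the sources used here. Groups and replicate numbers came from the sample labels, and 0 columns were unmatched.

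The filter kept a gene if any group's mean count, scaled to the average library total, was over 10. The test was the quasi-likelihood test of edgeR 4.0.16 (R 4.3.3, TMM scaling, prior count 0.125), with the 4 groups in 1 fit. P-values were adjusted by Benjamini-Hochberg over all 12932 tested genes and called at under 0.05. Normalized counts are counts over the TMM-scaled library size, brought to its mean. The SE is the log2 fold change over the square root of F, and 95% intervals use its degrees of freedom. The alternatives were other filters (none, a mean above 50, a coefficient of variation under 0.7), other scalings (median-of-ratios, upper-quartile, quantile with limma 3.58.1, and library totals, the last added after seeing the data), DESeq2 1.42.0, the compared groups alone, the replicate number as a block, and each library left out. The fitting steps were tested on simulated data. Replicates of a group differed by more than sampling noise.

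The 9 members were named by the choice of the pathway, and for other lists up to 4 called genes with the largest changes were to be named, with further called genes named where their list is described, chosen after their values were seen. The members and lists were chosen with earlier results of these data known. Positions came from GENCODE vM21 (GRCm38, the same build as mm10). No molecular identifiers are named, so the reads counted need not be independent molecules. A gene of the other lists is counted in its list but not reported here.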

Additional observations from a re-analysis of the deposited data

Results flagged for a closer look

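None of the 9 proximal genes had an effect of adjuvant/Fat1562 that passed the test of a difference between VAT and Spl/LN. Of the 63 other pathway genes tested, 7 passed it by edgeR, against 3.72% of all tested genes, and each is given as the effect in VAT minus that in Spl/LN on the log2 scale. Tespa1, an adaptor needed for TCR signaling in thymocytes, differed by -1.59 (SE 0.22, edgeR adjusted p = 0.000415), with -1.56 in VAT. Sit1, a transmembrane adaptor, differed by -1.34 (edgeR adjusted p = 0.000685), with -1.09 in VAT. For Itpkb, which phosphorylates inositol trisphosphate, the difference was -0.74 (edgeR adjusted p = 0.0131), with 0.66 in Spl/LN. Prkcq differed by -0.61 (edgeR adjusted p = 0.0469) and Dgka by -0.53 (edgeR adjusted p = 0.0226). Cblb differed by 0.68 (edgeR adjusted p = 0.0397). Slamf6 differed by 1.44 (edgeR adjusted p = 0.00140), having risen by 0.84 in VAT and fallen by 0.60 in Spl/LN.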

How the results depend on the processing

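Of 936 values of single members under the alternatives, 836 kept their direction and their side of the threshold, 63 lost it, 19 gained it and 18 changed sign. The rise of Zap70, Cd3d and, in Spl/LN, Cd3g, and the lower Lat in VAT with adjuvant/Fat1562, were called under all 21 alternatives. The number of members called between tissues with adjuvant alone went from 5 to 3 without a filter, 1 with the compared groups alone, 2 with the replicate block and 7 with quantile normalization or library totals alone. After Fat1562 in Spl/LN, DESeq2 called 5 members and 793 genes, and 793 genes also passed without a filter, against 3 and 515. In the interaction DESeq2 called 789 genes in place of 481. With each library left out, the members called ran from 1 to 5 (genes 1259 to 2114) between tissues with adjuvant alone, 1 to 5 (1289 to 2377) with adjuvant/Fat1562, 2 to 5 (508 to 1398) after Fat1562 in VAT, 3 to 4 (190 to 502) in Spl/LN and 0 to 1 (240 to 575) in the interaction. Fewer libraries enter these fits.

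Between tissues with adjuvant alone, Cd247 changed sign with quantile normalization (-0.11). With adjuvant/Fat1562 Cd247 changed sign without a filter (-0.0062), with upper-quartile factors (-0.028), quantile normalization (-0.11) and library totals alone (-0.066), and ran from -0.032 to 0.029 with a library left out, negative without Spl/LN adjuvant/Fat1562 replicate 2 or VAT adjuvant/Fat1562 replicate 1. Lcp2 changed sign there with quantile normalization (-0.036). After Fat1562 in VAT, Lcp2 did so with quantile normalization (0.051) and without VAT adjuvant alone replicate 1, in a range of -0.15 to 0.068 with a library left out. After Fat1562 in Spl/LN, Cd247 ran from -0.035 to 0.025 with a library left out, positive without Spl/LN adjuvant alone replicate 2 or adjuvant/Fat1562 replicate 2. In the interaction, Cd3g changed sign with quantile normalization (0.069) and Cd3e with the replicate block (-0.012). With a library left out, Cd3e ran from -0.029 to 0.077 there, negative without Spl/LN adjuvant alone replicate 3, VAT adjuvant alone replicate 1 or VAT adjuvant/Fat1562 replicate 3, and Zap70 from -0.064 to 0.27, negative without VAT adjuvant alone replicate 2. The cause of these shifts was not tested.

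Nothing in the labels or methods ties libraries of the same number to 1 mouse, and the deviations of 15 same-numbered pairs from their group means correlated at -0.040 to 0.055, none over 0.1. Deviations within groups of so few libraries constrain each other, so these correlations cannot settle whether libraries shared a mouse, which is not known. With the replicate block the members called were 2 and 4 between tissues with adjuvant alone and adjuvant/Fat1562, 4 and 4 after Fat1562 in VAT and Spl/LN, and 0 in the interaction, and the genes called 1804, 1861, 990, 515 and 435.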

Other observations

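The kinase Syk and the Fc receptor gamma chain gene Fcer1g, which can stand in for Zap70 and the zeta chain in other leukocytes, were near the floor of detection in these cells. Syk had group means of 0.319 to 5.15 normalized counts and did not pass the filter for testing, against 1439 to 3203 for Zap70. Fcer1g had group means of 3.43 to 16.5 normalized counts, against 3358 to 3992 for Cd247.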
